A study of Homo sapiens with 12 samples.

Results

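KISS1, SH2D2A and LAPTM5 are 3 of the 60583 annotated genes counted in TT-seq libraries of a human osteosarcoma line. They were selected on their log2 fold changes in U2OS-AsiSI cells with an siRNA against INTS11, where they showed some of the largest rises from few reads. KISS1 encodes the precursor of the kisspeptins, secreted peptides that act through the receptor KISS1R and are best known for starting puberty and for the suppression of metastasis. SH2D2A encodes TSAd, an SH2-domain adaptor of T cells and endothelium that binds the kinase LCK and the VEGF receptor KDR. LAPTM5 encodes a lysosomal membrane protein of blood cells that helps send antigen receptors for degradation.

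TT-seq measures nascent RNA: a brief 4-thiouridine pulse marks RNA while it is being made, and marked fragments are pulled down and sequenced. The comparison concerns Integrator, a nuclear complex that binds RNA polymerase II. Its subunit INTS11 is an endonuclease that cuts nascent RNA, which can end transcription early. There were 4 groups of 3 libraries: U2OS cells with a control siRNA (siCtrl), U2OS cells with an siRNA against INTS11 (siINTS11), and U2OS-AsiSI cells with each of these siRNAs. All cells were taken 48 h after transfection. U2OS-AsiSI cells carry AsiSI-ER, a DNA-cutting enzyme joined to a hormone receptor domain, and both of their groups had 1 h of 4-hydroxytamoxifen (OHT), which lets the enzyme enter the nucleus. Line, enzyme and OHT therefore differ together between the lines and cannot be told apart.

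Totals ran from 20704611 to 38065726 counts per library. In U2OS, INTS11 itself had 277, 314 and 286 reads with siCtrl against 260, 216 and 225 with siINTS11, and the fitted level fell by 0.42 on the log2 scale (SE 0.09, adjusted p = 6.08e-05, edgeR's quasi-likelihood test). In U2OS-AsiSI it had 284, 351 and 269 reads against 258, 212 and 277, a log2 fold change of -0.13 (SE 0.08, adjusted p = 0.172). An siRNA acts mainly on mature RNA, so a nascent count is a weak check of these labels, and siINTS11 below names the library label. The line was checked by 12 osteosarcoma and mesenchymal markers. VIM had 3975 to 4586 reads per library and RUNX2, the osteoblast factor, 3486 to 15782, while TWIST1 had 2 to 9 and COL1A2 2 to 13.

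The 3 genes lie on the minus strand of chromosome 1, where 2700 of the 60583 genes (4.46%) are, far from each other. On build hg38, LAPTM5 spans chr1:30732469-30757774 (25306 bases), SH2D2A chr1:156806243-156816862 (10620 bases) and KISS1 chr1:204190341-204196491 (6151 bases). In GENCODE release 29 their principal transcripts have 8, 9 and 3 exons. Counts cover the whole span, introns included. RefSeq's promoter table (GRCh38.p14) held 2 of the 3, and the 250 bases before each annotated start are shown because both genes were higher under siINTS11. Capitals mark every match, on either strand, to the motifs searched: TATA box (TATAAA), GC box (GGGCGG), CRE core (ACGTCA), E-box (CAGCTG), AP-1 (TGANTCA) and ETS core (GGAAGT).
KISS1: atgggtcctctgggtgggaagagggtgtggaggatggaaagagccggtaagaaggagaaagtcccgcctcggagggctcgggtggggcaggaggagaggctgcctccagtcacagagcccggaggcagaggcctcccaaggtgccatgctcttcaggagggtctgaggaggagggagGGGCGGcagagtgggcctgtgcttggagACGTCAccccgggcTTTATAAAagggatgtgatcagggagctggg
LAPTM5: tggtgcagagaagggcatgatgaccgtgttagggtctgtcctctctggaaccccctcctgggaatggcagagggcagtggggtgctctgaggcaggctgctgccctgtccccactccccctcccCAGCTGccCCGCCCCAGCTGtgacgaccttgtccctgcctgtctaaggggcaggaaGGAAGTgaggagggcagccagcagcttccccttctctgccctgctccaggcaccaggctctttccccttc
The KISS1 window is chr1:204196492-204196741 and the LAPTM5 window chr1:30757775-30758024, both read on the minus strand. Distances count from RefSeq's starts, which the deposited gene spans share. GENCODE release 29 starts the principal transcripts at 204196486 (KISS1) and at 30757820 (LAPTM5), the latter inside the printed window, so distances differ by that annotation. KISS1 held TATAAA on both strands in overlapping letters, 29 bases before the start on its own strand and 31 on the other. It also held ACGTCA 45 bases and GGGCGG 73 bases before the start. LAPTM5 had no TATAAA in this window. It held CAGCTG 126 and 112 bases before the start, GGGCGG on the other strand at 118 bases, next to the later CAGCTG, and GGAAGT at 70 bases. The only motif that both windows held was GGGCGG, which is present in 42.6% of 35116 promoter windows of this length. TATAAA is in 10.7% of them, ACGTCA in 7.1%, CAGCTG in 14%, GGAAGT in 19.5% and TGANTCA in 6.57%. GC content was 63.6% in the KISS1 window and 64.8% in that of LAPTM5, against a median of 58%.

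KISS1 was the best covered of the 3 in control cells. In U2OS-AsiSI it had 25, 37 and 16 reads in the siCtrl libraries and 333, 252 and 315 in the siINTS11 libraries. Every siINTS11 library was above every siCtrl library, and the lowest siINTS11 count was 6.81 times the highest siCtrl count. Its level in CPM, reads scaled to a common library total, was 0.864 ± 0.288 under siCtrl and 11.2 ± 0.43 under siINTS11 (SD, n = 3), a fitted log2 fold change of 3.67 (SE 0.14). In U2OS the counts were 40, 29 and 31 against 340, 289 and 325. Again the groups did not overlap, and the level went from 1.12 ± 0.32 to 10.0 ± 0.51 CPM (SD, n = 3). The fitted log2 fold change of KISS1 in U2OS was 3.16 (SE 0.13).

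SH2D2A, the T-cell adaptor, started from fewer reads. U2OS-AsiSI libraries held 12, 10 and 14 reads under siCtrl and 220, 160 and 220 under siINTS11. The lowest siINTS11 count was 11.4 times the highest siCtrl count. The level was 0.411 ± 0.099 CPM against 7.42 ± 0.33 CPM (SD, n = 3), a log2 fold change of 4.19 (SE 0.17). In U2OS there were 2, 8 and 7 reads under siCtrl and 123, 128 and 125 under siINTS11, or 0.182 ± 0.095 and 3.96 ± 0.24 CPM (SD, n = 3). The 3 siINTS11 libraries lay close together and far above the controls, of which the first was lowest. The log2 fold change of SH2D2A in U2OS was 4.35 (SE 0.23).

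LAPTM5, the longest of the 3, gave nearly the same levels as SH2D2A. U2OS-AsiSI libraries held 13, 14 and 9 of its reads with siCtrl against 219, 171 and 207 with siINTS11, so the groups did not overlap and the nearest libraries differed 12.2-fold in counts. These reads are 0.403 ± 0.064 CPM against 7.42 ± 0.3 CPM (SD, n = 3), a log2 fold change of 4.18 (SE 0.17). In U2OS the reads were 7, 8 and 7 against 161, 108 and 115, with the first siINTS11 library highest at 4.87 CPM and the others at 3.53 and 3.67 CPM. The log2 fold change of LAPTM5 in U2OS was 4.01 (SE 0.23). In these bulk libraries, more cells with some reads and more reads per cell cannot be told apart.

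**Figure D1:**
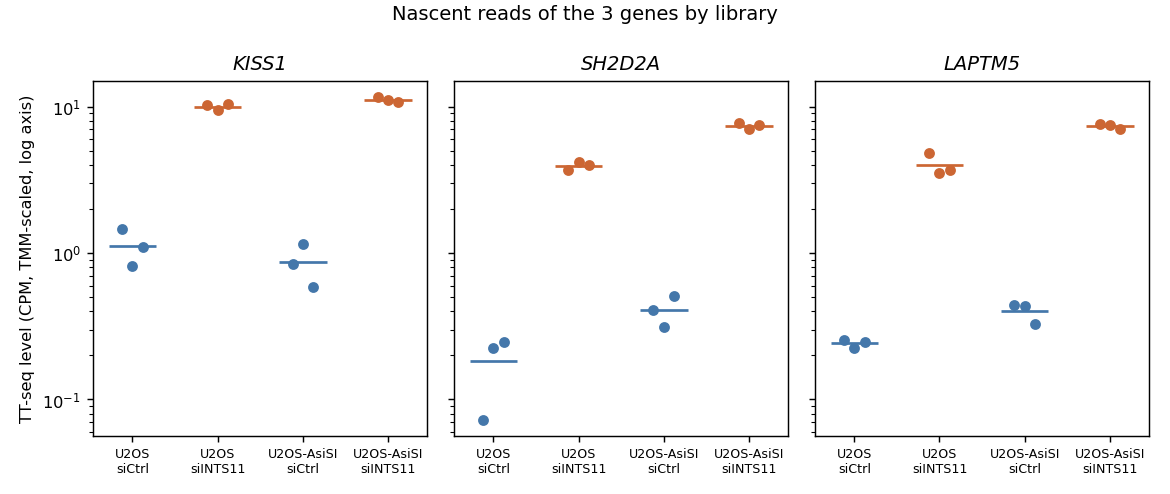
TT-seq level of KISS1, SH2D2A and LAPTM5 in each library, in CPM on a log axis; points are the 3 libraries of each group and bars their mean. Under siINTS11 the points of U2OS-AsiSI lie between 7.05 and 11.6 CPM and those of U2OS between 3.53 and 10.4 CPM, and no siCtrl point is above 1.46 CPM.

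Changes this large were rare, while a rise as such was not. Of 20441 genes tested in U2OS-AsiSI, 35.4% were called higher (adjusted p under 0.05) and 0.235% were called higher by at least 8-fold. In U2OS the shares were 34.5% and 0.338% of 20687 genes. The balance of all genes moved with the scale: 7236 were called higher and 6657 lower in U2OS-AsiSI, but 10550 and 4024 with library totals alone, and in U2OS 7140 and 6706 became 10968 and 3799. Under that scale the log2 fold changes of KISS1, SH2D2A and LAPTM5 in U2OS were 3.36, 4.55 and 4.21. A complete separation, with all siINTS11 libraries above all siCtrl libraries, held for 36.4% of genes in U2OS-AsiSI and 38.2% in U2OS, so it sets none of the 3 apart. Their U2OS-AsiSI values chose them and carry no test here. The U2OS values were also known when they were picked. SH2D2A and LAPTM5 passed the count filter there only through their siINTS11 libraries, so the U2OS values are given as a description too.

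The choice can be seen in the ranks. Among genes called higher in U2OS-AsiSI with a mean of at least 100 reads under siINTS11 and no overlap, CES1P2 led with a log2 fold change of 5.09, and SH2D2A and LAPTM5 followed. KRT79, a keratin, came next at 4.08, then KISS1. EXOC3L2, just outside, stood at 3.61, and ACSBG1 at 3.04. Over all called genes, without the minimum of 100 reads and the condition of no overlap, SH2D2A, LAPTM5 and KISS1 ranked 5, 6 and 19.

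Both of the weaker members entered the U2OS test through their siINTS11 reads alone. The count filter asks for about 0.321 CPM in U2OS, which 0 of 3 siCtrl libraries reached for SH2D2A and LAPTM5 and 3 of 3 for KISS1. In U2OS-AsiSI (0.364 CPM) the numbers were 2 of 3 for SH2D2A and LAPTM5 and 3 of 3 for KISS1. The filter asks for this level in as many libraries as a group holds. The siCtrl libraries of SH2D2A and LAPTM5 alone thus fell short in U2OS-AsiSI too. All 3 genes passed in both lines. Even at their highest they were thinly covered, with 0.0553 reads per base for KISS1, 0.0207 for SH2D2A and 0.00865 for LAPTM5.

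The levels per length set the 3 genes in another order than their folds. Under siINTS11 in U2OS-AsiSI, KISS1 had 1.82 CPM per kb of span, SH2D2A 0.699 and LAPTM5 0.293. Under siCtrl the order was the same, at 0.141, 0.0387 and 0.0159 CPM per kb. KISS1, with the smallest log2 fold change of the 3, thus had the densest reads in both groups. Together the 3 genes held 39 to 61 reads per U2OS-AsiSI siCtrl library and 583 to 772 per siINTS11 library.

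A gene was called near-silent here if it was tested and had a mean of 5 to 50 siCtrl reads. Such genes in part entered the test only through the group where they were high, so their shares are given as a description. Of 5090 such genes in U2OS-AsiSI, 48.8% were called higher and 8.84% lower, with a median log2 fold change of 0.52, against a median of 0.03 over all genes tested. In U2OS, 46.7% of 5285 were called higher and 10.2% lower, with a median of 0.48 against 0.02. Among genes with a mean of 20 to 50 siCtrl reads, a range chosen after seeing the data, 46.8% in U2OS-AsiSI and 42.5% in U2OS were called higher, with medians of 0.4 and 0.29.

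**Figure D2:**
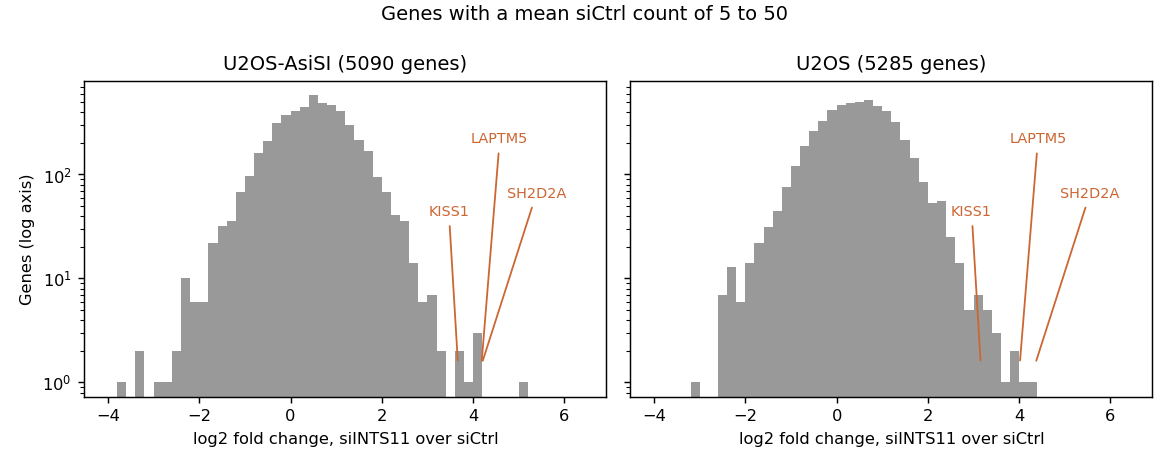
Histograms of the log2 fold change (siINTS11 over siCtrl) of all near-silent genes, 5090 in U2OS-AsiSI and 5285 in U2OS, with gene numbers on a log axis and lines pointing to the 3 genes. The bulk lies right of 0 (medians 0.52 and 0.48), and the 3 genes sit at the far right, at 3.67 to 4.19 in U2OS-AsiSI and 3.16 to 4.35 in U2OS.

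Of the near-silent genes, 16 in U2OS-AsiSI (0.314%) and 20 in U2OS (0.378%) were called higher by at least 8-fold. The shares over all genes tested were 0.235% and 0.338%. By log2 fold change SH2D2A, LAPTM5 and KISS1 ranked 2, 3 and 6 in U2OS-AsiSI and 1, 2 and 14 in U2OS. The U2OS-AsiSI ranks restate the values that chose the genes. The near-silent genes with a same-strand gene ending within 50 kb upstream were called higher in 45.1% of 3333 cases in U2OS-AsiSI, and those without in 56% of 1757. In U2OS the shares were 42.6% of 3480 and 54.6% of 1805. The difference between these shares was not tested.

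The 3 loci differ in what lies upstream. KISS1 starts 1671 bases past the end of GOLT1A, which is read in the same direction, SH2D2A starts 23200 bases past the end of INSRR, and LAPTM5 has its nearest same-strand upstream gene, AL137027.1, 52603 bases away. Within 50 kb on the same strand 8 genes were followed, of which 5 could be tested in each line. All 5 rose in U2OS-AsiSI and 4 of 5 in U2OS, against 35.4% and 34.5% of all genes, and 0 of 5 fell in either line.

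Around KISS1, the same-strand neighbours GOLT1A, PLEKHA6 and ETNK2 rose in both lines, but by less than KISS1, which was chosen for a large rise. GOLT1A, a Golgi transport protein gene, had 38, 30 and 36 reads in U2OS-AsiSI siCtrl and 83, 70 and 108 in siINTS11, and rose by 1.47 on the log2 scale (SE 0.17, adjusted p = 5.68e-09, edgeR's quasi-likelihood test). In U2OS its reads went from 46, 44 and 42 to 96, 99 and 96, a rise of 1.05 (SE 0.15, adjusted p = 1.16e-07). PLEKHA6, the next gene upstream, ends 22361 bases before the start of KISS1 and rose by 0.69 (SE 0.09) in U2OS-AsiSI and 0.84 (SE 0.09) in U2OS. Neither gene's libraries overlapped between the siRNAs.

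ETNK2, an ethanolamine kinase gene 38296 bases downstream of KISS1, rose by 0.56 (SE 0.07) in both lines.

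The density of reads was lower upstream of KISS1. Under siINTS11 in U2OS-AsiSI, GOLT1A had 0.204 CPM per kb and PLEKHA6 0.0723, against 1.82 for KISS1. Per library, KISS1 was 1.14 to 3.17 times as dense as GOLT1A under siCtrl and 7.5 to 10.3 times under siINTS11. In U2OS this ratio was 1.94 ± 0.27 under siCtrl and 8.45 ± 0.83 under siINTS11 (SD, n = 3), given as a description. Reads per kb added under siINTS11 in U2OS came to 1.45 CPM in KISS1 and 0.101 CPM in GOLT1A. Against ETNK2 the density of KISS1 was 0.257 ± 0.06-fold under siCtrl and 1.54 ± 0.04-fold under siINTS11 in U2OS (SD, n = 3).

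**Figure D3:**
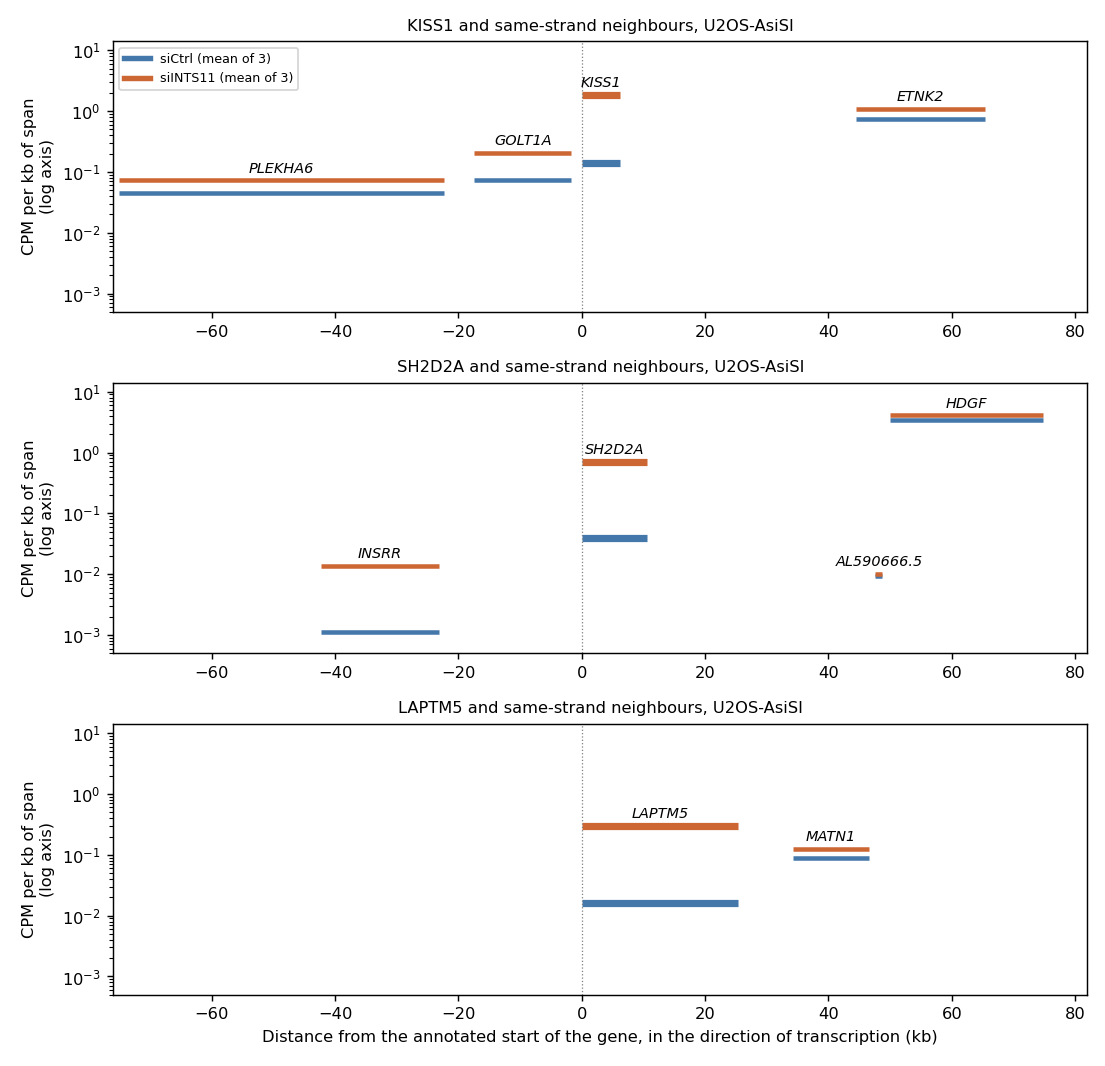
Mean TT-seq density in U2OS-AsiSI (CPM per kb of annotated span, log axis) of each gene and its reported same-strand neighbours within 50 kb, by distance from the gene's start in the direction of transcription. Blue lines are siCtrl and orange lines siINTS11, means of 3 libraries; KISS1 at 1.82 CPM per kb under siINTS11 stands above GOLT1A at 0.204, and MIR4420, with 0 reads, is not drawn.

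At the SH2D2A locus the upstream neighbour was close to silent. INSRR, a receptor kinase gene related to the insulin receptor, had 1, 1 and 0 reads in U2OS-AsiSI siCtrl and 8, 3 and 11 in siINTS11. Pooled over libraries this is a ratio of 13.9 (95% exact counting interval 3.41 to 122), and in U2OS, with 2 reads against 23, it was 12.4 (3.07 to 109). INSRR did not pass the count filter in either line. Its density under siINTS11 in U2OS-AsiSI was 0.0138 CPM per kb, against 0.699 for SH2D2A. AL590666.5 had at most 2 reads in any library.

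Downstream of SH2D2A lies HDGF, a growth factor gene with 2335 to 3007 reads per library. It rose by 0.24 (SE 0.05, adjusted p = 9.82e-05) in U2OS-AsiSI, and in U2OS its log2 fold change was 0.09 (SE 0.04, adjusted p = 0.0846, edgeR's quasi-likelihood test) with overlapping libraries. SH2D2A had 0.00515 ± 0.00286 times the density of HDGF in U2OS siCtrl and 0.101 ± 0.005 times under siINTS11 (SD, n = 3). PRCC, 5427 bases past the end of SH2D2A on the other strand, rose by 0.13 (SE 0.04, adjusted p = 0.0143) in U2OS-AsiSI and 0.10 (SE 0.04, adjusted p = 0.0267) in U2OS. This small rise of PRCC missed the threshold in both lines under DESeq2, median-of-ratios scaling and no count filter.

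The LAPTM5 locus had no transcribed same-strand gene upstream within 50 kb, and AL137027.1 had at most 1 read in any library. MIR4420, a microRNA inside LAPTM5, had 0 reads, as did all 986 genes of at least 500 bases that lie inside a single gene of their own strand, so reads over 2 genes of one strand were not counted. MATN1, a cartilage matrix gene 8883 bases downstream, had 27, 34 and 37 reads in U2OS-AsiSI siCtrl and 42, 35 and 48 in siINTS11. It rose by 0.49 there (SE 0.19, adjusted p = 0.0248) and by 0.92 in U2OS (SE 0.22, adjusted p = 2.63e-04, edgeR's quasi-likelihood test). The call in U2OS-AsiSI was lost under DESeq2 (0.47, adjusted p = 0.127) and without siCtrl replicate 1 (0.38), siCtrl replicate 2 (0.46) or siINTS11 replicate 3 (0.44). LAPTM5 had 0.173 ± 0.006 times the density of MATN1 in U2OS siCtrl and 1.49 ± 0.19 times under siINTS11 (SD, n = 3). On the other strand MATN1-AS1, 5641 bases away, rose by 1.25 (SE 0.08, adjusted p = 1.35e-14) in U2OS-AsiSI and by 1.24 (SE 0.09, adjusted p = 1.70e-15) in U2OS. AL137857.1, which overlaps 959 bases of LAPTM5 there, had at most 2 reads.

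Reads of the 2 strands were kept apart in these tables, which bears on the antisense overlap at LAPTM5. Of 2526 genes of at least 500 bases lying inside a single gene of the opposite strand, 81.7% had reads, at a median of 0.00434 of the host's reads per base. AL137857.1 had 0 to 2 reads also in the siINTS11 libraries, where LAPTM5 had 108 to 219.

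**Figure D4:**
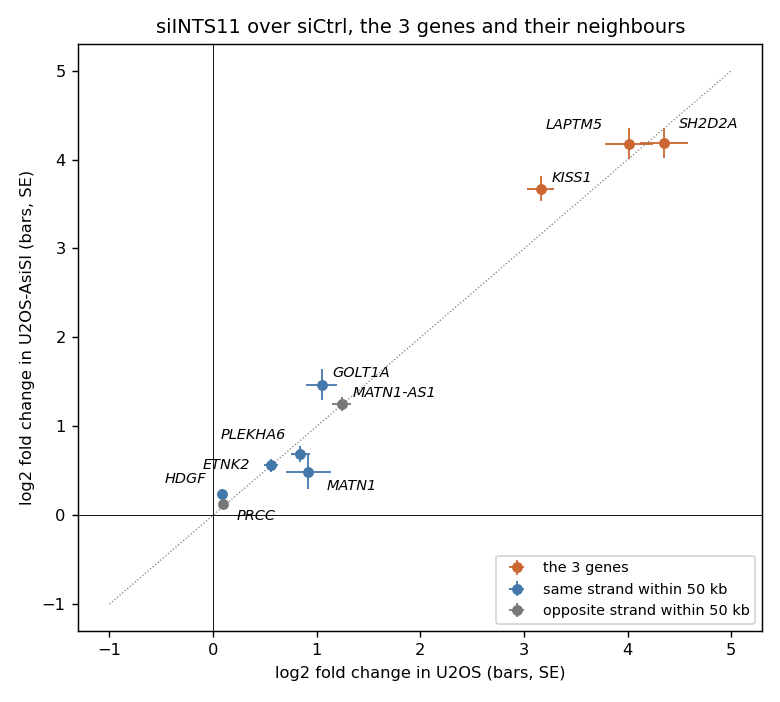
Log2 fold change (siINTS11 over siCtrl) in U2OS, horizontal, against U2OS-AsiSI, vertical, with SE bars, for the 3 genes and their reported and tested neighbours within 50 kb on either strand; the dotted line marks equal change. The 3 genes lie at 3.16 or more on both axes, and the highest of the others, GOLT1A and MATN1-AS1, at 1.05 to 1.47.

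In each line the fitted change of all 3 genes was above 8-fold. The U2OS-AsiSI change less the U2OS change, from the interaction term over 12 libraries, was 0.48 for KISS1 (SE 0.25, approximate 95% interval -0.01 to 0.97). For SH2D2A it was -0.20 (SE 0.39, -0.95 to 0.56) and for LAPTM5 0.14 (SE 0.43, -0.71 to 0.98). With no count filter the difference of KISS1 was 0.52 (0.06 to 0.99). Its difference was 0.55 (SE 0.25) with a mean count of at least 50, 0.69 (SE 0.26) without U2OS siCtrl replicate 2 and 0.77 (SE 0.28) without U2OS-AsiSI siCtrl replicate 2, but 0.25 (SE 0.27) without U2OS siCtrl replicate 1. The intervals of SH2D2A and LAPTM5 were wide. The U2OS-AsiSI libraries chose the genes for large rises, which can raise these differences. No test is attached to these values, and their intervals are not read against 0. Of 21521 genes, 3.87% were called different between the lines by this term.

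Under siINTS11 the levels themselves were higher in U2OS-AsiSI, by more for SH2D2A and LAPTM5 than for KISS1. Over all genes tested, 22.2% of 20802 were called higher in U2OS-AsiSI under siINTS11 and 17.8% of 19935 under siCtrl. EXOC3L2 and KRT79, chosen below for profiles like that of LAPTM5, had log2 differences of 1.03 (SE 0.09) and 1.02 (SE 0.11) under siINTS11. With siINTS11 the U2OS-AsiSI libraries had 7.05 to 7.69 CPM of SH2D2A, and the U2OS libraries 3.72 to 4.19 CPM, a log2 difference of 0.95 (SE 0.10). For LAPTM5 the difference was 0.91 (SE 0.11), with libraries at 7.09 to 7.65 and 3.53 to 4.87 CPM. KISS1 differed by 0.19 (SE 0.08), at 10.8 to 11.6 against 9.45 to 10.4 CPM. With siCtrl, SH2D2A had 0.313 to 0.512 CPM in U2OS-AsiSI and 0.0729 to 0.247 CPM in U2OS, from 10 to 14 against 2 to 8 reads. LAPTM5 had 0.329 to 0.441 against 0.226 to 0.255 CPM, from 9 to 14 against 7 to 8 reads. The fitted siCtrl difference of LAPTM5 was 0.74 (SE 0.37, approximate 95% interval 0.02 to 1.46, and -0.04 to 1.53 with no count filter). That of KISS1 was -0.32 (SE 0.25), and its libraries overlapped. SH2D2A was left out of that fit by the count filter and had a difference of 1.11 (SE 0.43) without it. By the means, the order of levels was U2OS siCtrl, U2OS-AsiSI siCtrl, U2OS siINTS11 and U2OS-AsiSI siINTS11 for SH2D2A and LAPTM5. For KISS1 the siCtrl groups stood the other way round and overlapped.

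Genes with the most similar profile were found among 15616 genes with a mean of at least 50 reads, by the root mean square difference of centred log2 CPM over the 12 libraries. SH2D2A and LAPTM5 were near each other at 0.41 (Pearson's r of 0.98 over 12 libraries in 4 groups, a description). KISS1 was 0.53 from LAPTM5 and 0.82 from SH2D2A. Nearest to LAPTM5 were EXOC3L2 (0.32) and KRT79 (0.36), which were also near SH2D2A, at 0.47 and 0.51. Nearest to KISS1 were LINC01647 (0.30), the hexokinase gene HKDC1 (0.39) and the organic anion transporter gene SLCO2B1 (0.42). HKDC1 went from 4.72 ± 0.39 to 34.9 ± 0.4 CPM in U2OS-AsiSI and from 4.47 ± 0.18 to 37.8 ± 1.8 CPM in U2OS (SD, n = 3).

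Genes of 3 partner lists were read in the same fits. The tested ones changed by less than the 3 genes, which were chosen for large rises, so this is a description. Of 20 listed kisspeptin and RFamide signalling genes, 13 were tested in U2OS-AsiSI: 6 rose, 3 fell and 4 were not called, with a median log2 fold change of 0.10 against 0.03 over all genes. In U2OS 3 rose and 5 fell, with a median of -0.06. These counts changed with single libraries: in U2OS-AsiSI 3 rose without siCtrl replicate 3, without siINTS11 replicate 3 or under DESeq2. In U2OS 5 rose without siCtrl replicate 1, and 3 fell without siCtrl replicate 2 or 3. Over all genes tested 35.4% rose and 32.6% fell in U2OS-AsiSI, and 34.5% and 32.4% in U2OS. The receptor KISS1R had 0 to 3 reads in every library, and the peptide genes NPVF, NPFF and PRLH had 0. PLCB2, a phospholipase downstream of such receptors, rose by 1.48 in U2OS-AsiSI and 1.32 in U2OS (SE 0.09 in each). GNAQ, the G protein subunit that couples KISS1R, rose by 0.79 and 0.80 (SE 0.05), and PLCB1 fell by 0.70 and 0.76.

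For SH2D2A, 24 binding partners and SH2D relatives were listed and 16 tested. In U2OS-AsiSI 4 rose and 6 fell, with a median of -0.08, and in U2OS 5 rose and 7 fell, with a median of -0.07. In U2OS-AsiSI 2 rose without siINTS11 replicate 3, with no count filter or under DESeq2. The shares over all genes tested were 35.4% higher and 32.6% lower in U2OS-AsiSI, and 34.5% and 32.4% in U2OS. The partners KDR and LCK had 0 to 7 and 2 to 14 reads, and SH2D1A, the T-cell adaptor SAP, had 0. SH2D5 rose by 0.94 (SE 0.06) in U2OS-AsiSI and 0.69 (SE 0.06) in U2OS. SH2D4B fell by 0.77 and 0.65, and SMAD2, a TGF-beta signal transducer, fell by 0.36 and 0.25. With library totals as the scale, which move the median of all genes to 0.22 in both lines, 8 members rose and 4 fell in U2OS-AsiSI and 9 rose and 2 fell in U2OS.

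All 21 listed LAPTM relatives, ubiquitin ligase partners and lysosomal membrane genes were tested. In U2OS-AsiSI 3 rose and 12 fell, with a median of -0.20, and in U2OS 2 rose and 11 fell, with a median of -0.10. Beside these, 35.4% of all genes tested rose and 32.6% fell in U2OS-AsiSI (median 0.03), and 34.5% and 32.4% in U2OS (median 0.02). MITF, a relative of the lysosomal regulator TFEB, fell by 1.11 (SE 0.05) and 1.03 (SE 0.04), LAMP2 by 0.64 and 0.51, and LAPTM4A by 0.51 and 0.25. This balance depends on the scale: with library totals 9 rose and 9 fell in U2OS-AsiSI and 9 rose and 7 fell in U2OS, and LAPTM4A in U2OS was at -0.05 (adjusted p = 0.362).

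SH2D2A and LAPTM5 are leukocyte genes, so 24 leukocyte markers were read in the same libraries. Of 10 tested in U2OS-AsiSI 8 rose and 1 fell (median 0.84), and of 11 tested in U2OS 8 rose and 2 fell (median 0.59). Over all genes tested 35.4% and 34.5% were called higher, and of near-silent genes 48.8% and 46.7%. Of the 24, 8 had a mean under 3 reads. AIF1 and TYROBP had 0 reads in all 12 libraries, CD3E and CD2 at most 1 and LYZ at most 2. PTPRC, which all leukocytes carry, had 2 to 7. The best covered was VAV1, with 176 to 344 reads and mean siCtrl levels of 7.48 CPM (U2OS-AsiSI) and 6.55 CPM (U2OS). It rose by 0.44 (SE 0.10) in U2OS-AsiSI and 0.59 (SE 0.09) in U2OS. IKZF1, with 103 to 194 reads, rose by 0.29 and 0.26 (SE 0.11 in each). CD53, a leukocyte tetraspanin with 6 to 58 reads, rose by 2.78 (SE 0.26) and 2.60 (SE 0.27), LCP1 rose by 0.83 and 0.94, and HCLS1 fell by 1.30 and 1.55. With mean siCtrl levels of 0.273 CPM (U2OS-AsiSI) and 0.238 CPM (U2OS), CD53 passed the count filter only through its siINTS11 libraries. In U2OS the siCtrl libraries of CD3D and SPI1 alone also fell short, at means of 0.21 and 0.307 CPM. Under siINTS11 these 2 had 0.514 and 0.347 CPM, and CD3D was called higher (1.26, SE 0.37). MS4A1 in U2OS passed only through its siCtrl libraries. The summed level of the list was 24.1 to 24.8 CPM in U2OS-AsiSI siCtrl and 31.1 to 34.4 in siINTS11, and 21.8 to 23.7 and 28.4 to 31.5 in U2OS.

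Of the 12 osteosarcoma and mesenchymal markers 10 were tested, and 4 rose and 4 fell in U2OS-AsiSI (median 0.05), with 3 and 4 in U2OS (median -0.03). Among all genes tested 35.4% rose and 32.6% fell in U2OS-AsiSI, and 34.5% and 32.4% in U2OS. RUNX2 fell by 1.07 (SE 0.05) and 0.84 (SE 0.04), CDH2 by 0.56 and 0.59, and ALPL, the bone alkaline phosphatase, rose by 1.31 and 1.47. The part of these marker changes in the values of the 3 genes was not tested.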

How the data were processed

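The authors deposited raw read counts per gene, whole numbers for 60583 genes in 12 libraries (0 count columns were left without a sample). Per the submitters' processing notes, Trimmomatic 0.36, STAR 2.7, featureCounts and deepTools were used on build hg38. Duplicate handling and strand setting are not given in the sources used here. For all 60504 genes listed with a single interval, the length equals the span. Replicates differed by more than sampling noise (chi-square per degree of freedom 1.93 to 3.28). Nothing says that replicates came from separate cultures, so p-values measure the spread between these libraries, which may be technical. The interval of the INSRR ratio covers counting error only, and those of the differences between lines come from the SE.

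Tests used edgeR 4.0.16 in R 4.3.3 (filterByExpr, TMM, quasi-likelihood, two-sided, Benjamini-Hochberg over all genes tested, threshold 0.05) on the 6 libraries compared, or on 12 for the interaction. They were first tested on simulated data. Each SE is the size of the log2 fold change divided by the root of its F statistic. CPM was scaled by TMM over 12 libraries. Alternatives were median-of-ratios scaling, library totals, no filter, a mean count of at least 50, DESeq2 1.42.0, the replicate block, each library left out in turn, and windows of 10 and 100 kb. Named are the 3 genes, same-strand genes within 50 kb, overlapping or nearest opposite-strand genes, the 3 most similar genes each, INTS11, the 3 smallest adjusted p per list and adjacent ranks. Other list members, PRCC and MATN1-AS1 were named after their values were seen. The 3 genes and the lists were chosen with earlier results of these data known. The siINTS11 comparison between lines, density ratios, the INSRR ratio and the range of 20 to 50 reads were added after seeing the data. A few neighbouring genes and markers are not reported here, and neighbour counts leave such neighbours out.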

Additional observations from a re-analysis of the deposited data

Results flagged for a closer look

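In 3 genes named above the change under siINTS11 differed between the lines, by the interaction term of edgeR's quasi-likelihood test with Benjamini-Hochberg adjustment. The difference is the U2OS-AsiSI change less the U2OS change. SLCO2B1 rose by 2.75 in U2OS-AsiSI and 3.21 in U2OS, a difference of -0.49 (SE 0.14, adjusted p = 0.0438), which was kept in 2 of 18 alternatives. LAPTM4A fell by 0.51 and 0.25, a difference of -0.30 (SE 0.06, adjusted p = 0.00761), kept in 16 of 18. RUNX2 fell by 1.07 and 0.84, a difference of -0.26 (SE 0.07, adjusted p = 0.0213), kept in 9 of 18. Of 21521 genes tested, 3.87% showed such a difference. SLCO2B1 was named for a profile like that of KISS1 over the same 12 libraries. Line, nuclease and OHT cannot be told apart in these differences.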

How the results depend on the processing

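Of 182 alternatives for the 3 genes and the neighbour counts, 165 left the call, or a value without a test within 1 SE. In U2OS KISS1 stayed at 2.96 to 3.39, SH2D2A at 4.03 to 4.58 and LAPTM5 at 3.85 to 4.21; library totals gave 3.36 for KISS1. In U2OS-AsiSI library totals gave 3.86 for KISS1, 4.38 for SH2D2A and 4.37 for LAPTM5. Leaving out each library gave 3.46 to 3.95, 4.01 to 4.36 and 4.06 to 4.25 there. For the difference between lines it gave 0.25 to 0.77 for KISS1, -0.40 to 0.13 for SH2D2A, reversed without U2OS siCtrl replicate 1, and 0.02 to 0.31 for LAPTM5. Between the lines under siCtrl KISS1 ranged from -0.60 to -0.09, and LAPTM5 under siINTS11 from 0.83 to 1.08. A window of 10 kb left 2 tested same-strand neighbours, both called higher in both lines (2 of 2). With 100 kb, 6 of 8 tested were called higher in U2OS-AsiSI and 5 of 8 in U2OS. On the opposite strand, 2 of 2 tested within 50 kb and 6 of 6 within 100 kb were called higher in each line. The shares over all genes tested were 35.4% in U2OS-AsiSI and 34.5% in U2OS.

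With library totals, 4024 genes fell in U2OS-AsiSI in place of 6657. In U2OS 10968 rose and 3799 fell in place of 7140 and 6706, and INTS11 in U2OS-AsiSI stood at 0.06 (adjusted p = 0.551). By the interaction term 164 genes were called higher (a more positive log2 fold change in U2OS-AsiSI than in U2OS) and 668 lower. The higher calls were 379 with no filter, 441 with a mean of at least 50 and 103 with the replicate block. The lower calls were 270 with median-of-ratios factors, 415 with library totals, 291 with no filter, 217 with a mean of at least 50, 250 with DESeq2 and 428 with the replicate block. Leaving out each library gave 66 to 237 and 163 to 709. The cause was not tested.

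Replicate numbers are shared by the groups, but same-numbered libraries did not deviate together (correlations from -0.04 to 0.14 within a line), so the numbers were not taken as pairs. With the replicate block KISS1, SH2D2A and LAPTM5 were at 3.15, 4.36 and 3.99 in U2OS and 3.67, 4.18 and 4.19 in U2OS-AsiSI. HDGF in U2OS passed the threshold with library totals (0.29), a mean of at least 50 (0.13) and without siCtrl replicate 1 (0.15). Depth limits the genes with 0 to 14 siCtrl reads most, SH2D2A and LAPTM5 included.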
